A study of Mus musculus and Sus scrofa with 18 samples.

Results

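Hmgcs1, Idi1, Fdps, Fdft1, Sqle, Lss, Cyp51 and Dhcr7 encode 8 enzymes of cholesterol synthesis. They were taken as a named list, matched by symbol to Ensembl IDs in the mouse count table, and make up 8 of its 55357 genes. All 8 passed the filter on low counts, with between 486 and 6384 counts per mouse.

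Cells build cholesterol from acetyl-CoA by way of mevalonate, farnesyl diphosphate and squalene, which is closed into lanosterol and then trimmed step by step. When sterols in the membrane of the endoplasmic reticulum run low, the transcription factor SREBP2, the product of Srebf2, is cut free and switches on most genes of the route. Plasma cholesterol hardly enters the brain, so neurons and glia rely on local synthesis, and myelin is the largest store.

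The striatum of 9 mice was sequenced, 3 in each of 3 groups, and each library came from 1 mouse. WT mice had received AAV9 with a control gRNA (Ctrl gRNA) and no CasRx. HD untreated mice were heterozygous HD 140Q-KI animals, in which the first exon of human HTT with an expanded CAG repeat replaces that of the mouse gene, and had received AAV9-CasRx with Ctrl gRNA. HD treated mice were of the same line and had received AAV9-CasRx with HTT gRNA1 + 2 and HTT gRNA3 + 4. CasRx, an enzyme that cuts RNA at sites set by its gRNA, was expressed from the CAG promoter, which is active in many cell types, and the gRNA vectors carried GFP. The line was bred to C57BL/6J. Mice were injected in both sides of the striatum at 6 months of age and were examined 1.5 months later. Comparisons with WT thus take in CasRx as well as the knock-in allele. The 3 WT mice and HD untreated replicate 1 held 3435 to 5005 counts on 4 Y-linked genes and the other 5 mice held 0, so the presence of Y-linked counts cannot be told apart from treatment between the treated and WT mice.

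Libraries held 27184356 to 32102121 counts. Levels are given in CPM, that is counts scaled to library size, after TMM scaling, and a gene was called when its Benjamini-Hochberg adjusted p in edgeR's quasi-likelihood test was under 0.05 over all 19463 tested genes, with no minimum fold. Htt, the target, stood at 187 ± 4.81 CPM in WT, 145 ± 4.62 in HD untreated and 135 ± 4.65 in HD treated mice (SD, n = 3 each). The edgeR log2 difference of Htt between treated and untreated mice was -0.10 (SE 0.06, adjusted p = 0.942), and these reads from the 3′ end of the mRNA do not separate the alleles. None of 12 markers of striatal projection neurons was at 0 in any mouse, which at this depth cannot test how cleanly the striatum was dissected.

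RefSeq promoter windows, from 250 bases before to 50 bases after the start site, were at hand for 5 of the 8 enzymes: Hmgcs1, Idi1, Lss, Cyp51 and Dhcr7. Fdps, Fdft1 and Sqle had none. Each window was searched on both strands for TCACNCCAC and the looser TCACNNNAC (forms of the sterol regulatory element bound by SREBP2), CCAAT (the NF-Y box) and GGGCGG (the Sp1 box), where N is any base. Every TCACNCCAC match is also a TCACNNNAC match, and the 2 other motifs may overlap them. The windows of 4 enzymes are shown because Hmgcs1, Idi1 and Cyp51 varied most closely together among mice and Lss was the only enzyme whose treated and WT values did not overlap, a choice made after their values were seen. Matches to any of the motifs, on either strand, are in capitals. The windows are chr13:119690101-119690400 (+) for Hmgcs1, chr13:8885356-8885655 (+) for Idi1, chr5:4104648-4104947 (-) for Cyp51 and chr10:76531355-76531654 (+) for Lss, all in GRCm38.p6 and written 5′ to 3′ on the gene's strand.
Hmgcs1: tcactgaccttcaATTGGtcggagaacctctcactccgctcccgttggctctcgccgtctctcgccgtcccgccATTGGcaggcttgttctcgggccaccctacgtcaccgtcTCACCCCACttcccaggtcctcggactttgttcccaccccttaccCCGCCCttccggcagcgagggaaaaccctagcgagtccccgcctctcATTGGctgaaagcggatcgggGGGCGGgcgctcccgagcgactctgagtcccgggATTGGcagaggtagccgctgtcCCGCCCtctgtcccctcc
Idi1: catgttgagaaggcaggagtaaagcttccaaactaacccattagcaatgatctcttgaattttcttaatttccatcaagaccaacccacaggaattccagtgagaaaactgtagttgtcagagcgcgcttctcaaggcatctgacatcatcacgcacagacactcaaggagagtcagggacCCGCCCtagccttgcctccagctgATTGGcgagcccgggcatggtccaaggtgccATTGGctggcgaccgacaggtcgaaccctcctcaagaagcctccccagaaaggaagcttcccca
Cyp51: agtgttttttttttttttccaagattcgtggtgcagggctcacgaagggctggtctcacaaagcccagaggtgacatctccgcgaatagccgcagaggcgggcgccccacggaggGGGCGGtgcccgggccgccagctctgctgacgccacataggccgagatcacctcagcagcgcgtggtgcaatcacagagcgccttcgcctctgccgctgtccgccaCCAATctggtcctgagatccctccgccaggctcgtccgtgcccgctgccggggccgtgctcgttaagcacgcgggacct
Lss: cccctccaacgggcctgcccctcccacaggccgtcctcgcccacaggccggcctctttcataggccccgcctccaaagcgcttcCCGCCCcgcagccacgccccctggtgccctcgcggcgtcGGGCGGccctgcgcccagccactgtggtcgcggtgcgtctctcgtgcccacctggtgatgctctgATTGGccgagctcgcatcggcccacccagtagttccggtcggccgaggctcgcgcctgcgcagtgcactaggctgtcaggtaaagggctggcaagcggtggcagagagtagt

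TCACNCCAC was found in 1 of the 5 enzymes with a window, Hmgcs1, at bases -137 to -129 from the start site, and in 1.24% of all 32851 promoter windows. TCACNNNAC was found in Hmgcs1 and Dhcr7, against 11.2% of all windows. CCAAT was found in all 5 enzymes, in 5 of their 7 windows (Dhcr7 has 3), against 37.4% of all windows. GGGCGG was also found in all 5, in 6 of the 7 windows, against 35.7%. The Hmgcs1 window held 4 CCAAT boxes, all on the reverse strand, Idi1 held 2 on the reverse strand, Lss held 1 on the reverse strand and Cyp51 held 1 on the forward strand. These matches are descriptions of the reference letters and not measured binding sites.

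None of the 8 enzymes was called in any comparison by edgeR. In the untreated mice 7 of the 8 lay above WT on average, by up to 25.4% for Idi1, and in the treated mice 7 of 8 lay above WT, by up to 26.3% for Sqle, but the groups overlapped for every enzyme except Lss. Fdft1 was the exception in direction, with a mean below WT in both HD groups. At an unadjusted P under 0.05, the counts were 0 of 8 for untreated against WT, 1 of 8 (Lss) for treated against WT and 0 of 8 for treated against untreated, and DESeq2 called 0 of 8 in each at an adjusted p under 0.05. Over all tested genes, edgeR called 10.7% for untreated against WT, 3.69% for treated against WT and 0% for treated against untreated, while 28.6%, 21.4% and 5.5% had an unadjusted P under 0.05. No enzyme met the study's thresholds of at least 2-fold with P under 0.05, met by 8.16%, 5.22% and 0.771% of genes in the 3 comparisons, or with P under 0.01, met by 4.86%, 2.78% and 0.17%.

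**Figure D1:**
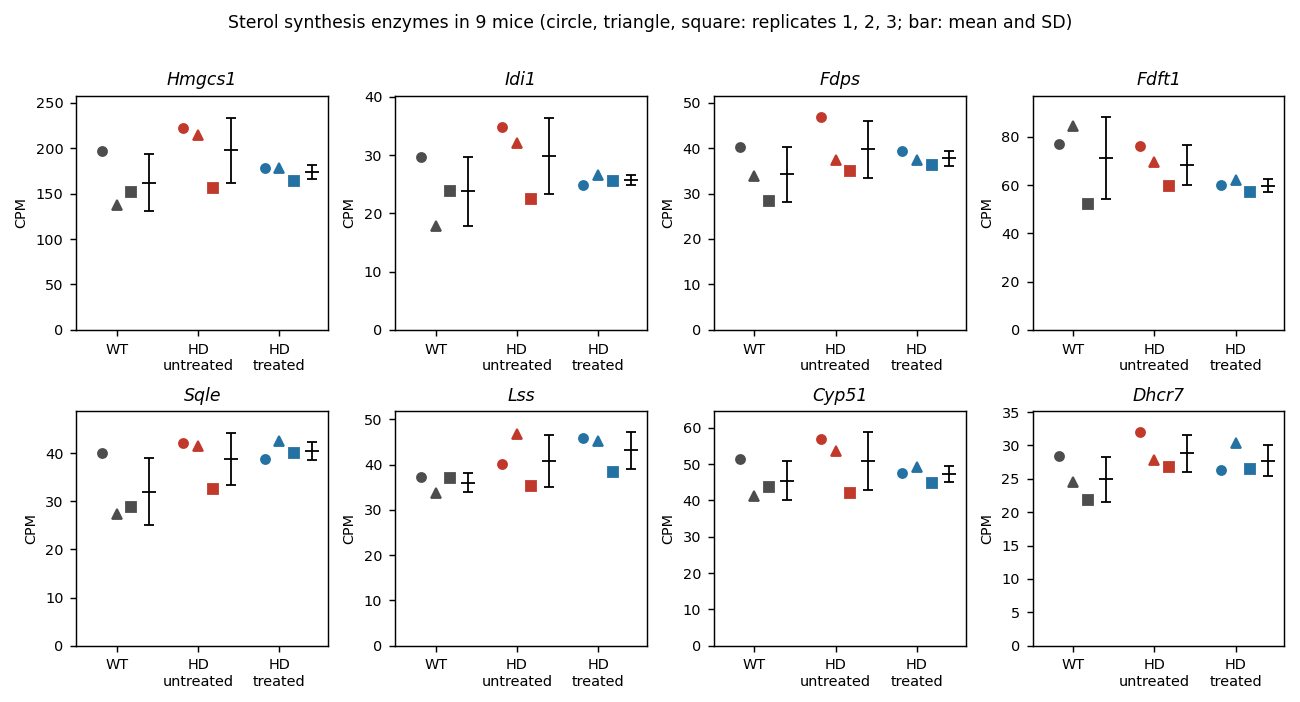
Level of each of the 8 enzymes in each of the 9 mice, in CPM on axes that start at 0. Circles, triangles and squares are replicates 1, 2 and 3, and the bar beside them is the mean with the SD of 3 mice. The treated mice lie close together, and only for Lss, with 38.4 to 45.9 CPM against 33.6 to 37.3 CPM in WT, are 2 groups apart.

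Hmgcs1 (ENSMUSG00000093930, chromosome 13) makes HMG-CoA, the precursor of mevalonate. It stood at 197, 137 and 152 CPM in WT replicates 1, 2 and 3, at 222, 214 and 157 CPM in untreated mice, and at 178, 178 and 164 CPM in treated mice. WT replicate 1 lay above all 3 treated mice, and untreated replicate 3 lay within the WT range, so no pair of groups was apart. The log2 difference was 0.29 (SE 0.16, edgeR adjusted p = 0.254) for untreated against WT, 0.10 for treated against WT and -0.19 for treated against untreated.

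Idi1 (ENSMUSG00000058258, chromosome 13) interconverts the building blocks isopentenyl and dimethylallyl diphosphate. Its CPM was 29.7, 17.8 and 23.8 in WT, 34.9, 32.1 and 22.5 in HD untreated and 24.9, 26.6 and 25.5 in HD treated mice. The WT values spanned 1.66-fold and the treated values 1.07-fold. Idi1 had the widest interval of the 8, with untreated at 0.92 to 1.71 times WT (95% confidence interval, adjusted p = 0.312 by edgeR).

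Fdps (ENSMUSG00000059743, chromosome 3) makes farnesyl diphosphate, the branch point to sterols, dolichol, ubiquinone and protein prenylation. It was measured at 40.3, 34.0 and 28.4 CPM in WT, 46.8, 37.4 and 35.0 CPM in untreated and 39.4, 37.4 and 36.4 CPM in treated mice. Untreated replicate 1 was the highest of the 9 mice and WT replicate 3 the lowest. The log2 differences were 0.22, 0.14 and -0.07 for untreated against WT, treated against WT and treated against untreated.

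Fdft1 (ENSMUSG00000021273, chromosome 14) joins farnesyl units into squalene and is the first enzyme of the route that serves sterols only. Its CPM was 77.2, 84.4 and 52.2 in WT, 76.2, 69.5 and 59.8 in HD untreated and 60.2, 62.2 and 57.0 in HD treated mice. The WT range enclosed all 6 HD mice. Fdft1 stood at 0.84 times WT in treated mice (log2 difference -0.25, SE 0.16, adjusted p = 0.403 by edgeR), and its difference from WT in untreated mice, -0.06, became 0.087 without WT replicate 2 and 0.032 without untreated replicate 3.

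Sqle (ENSMUSG00000022351, chromosome 15) puts oxygen onto squalene and is a rate-limiting step of the route. Its CPM was 40.0, 27.3 and 28.7 in WT, 42.2, 41.5 and 32.5 in HD untreated and 38.8, 42.5 and 40.0 in HD treated mice. WT replicate 1 lay among the HD mice, and the other WT mice lay below all 6. Sqle had the largest difference of the 8 between treated and WT mice, at 0.34 on the log2 scale (SE 0.15, 0.99 to 1.61 times WT, edgeR adjusted p = 0.246).

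Lss (ENSMUSG00000033105, chromosome 10) closes squalene epoxide into lanosterol, the first sterol. It stood at 37.3, 33.6 and 37.0 CPM in WT, 40.1, 46.8 and 35.3 CPM in untreated and 45.9, 45.1 and 38.4 CPM in treated mice. All 3 treated mice lay above all 3 WT mice, which 1 of 8 enzymes and 28.6% of all tested genes showed in either direction in that comparison. The difference was 0.26 on the log2 scale (SE 0.12, 95% interval 1.00 to 1.44 times WT, unadjusted P = 0.0496, adjusted p = 0.233 by edgeR). No enzyme was without overlap between untreated and WT mice (30.1% of all genes) or between treated and untreated mice (15.8%).

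Cyp51 (ENSMUSG00000001467, chromosome 5) removes a methyl group from lanosterol. Its CPM was 51.5, 41.2 and 43.6 in WT, 57.0, 53.7 and 42.0 in HD untreated and 47.6, 49.2 and 44.8 in HD treated mice. The 9 mice came in nearly the same order as for Hmgcs1, with untreated replicates 1 and 2 at the top and WT replicate 2 at the bottom. The log2 differences were 0.16, 0.06 and -0.11 in the 3 comparisons.

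Dhcr7 (ENSMUSG00000058454, chromosome 7) makes cholesterol from 7-dehydrocholesterol in the last step of its branch. Its CPM was 28.5, 24.5 and 21.8 in WT, 32.0, 27.8 and 26.7 in HD untreated and 26.3, 30.4 and 26.5 in HD treated mice. WT replicate 1 lay above 2 untreated and 2 treated mice. The log2 differences were 0.21 (SE 0.12, edgeR adjusted p = 0.294), 0.15 and -0.06.

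**Figure D2:**
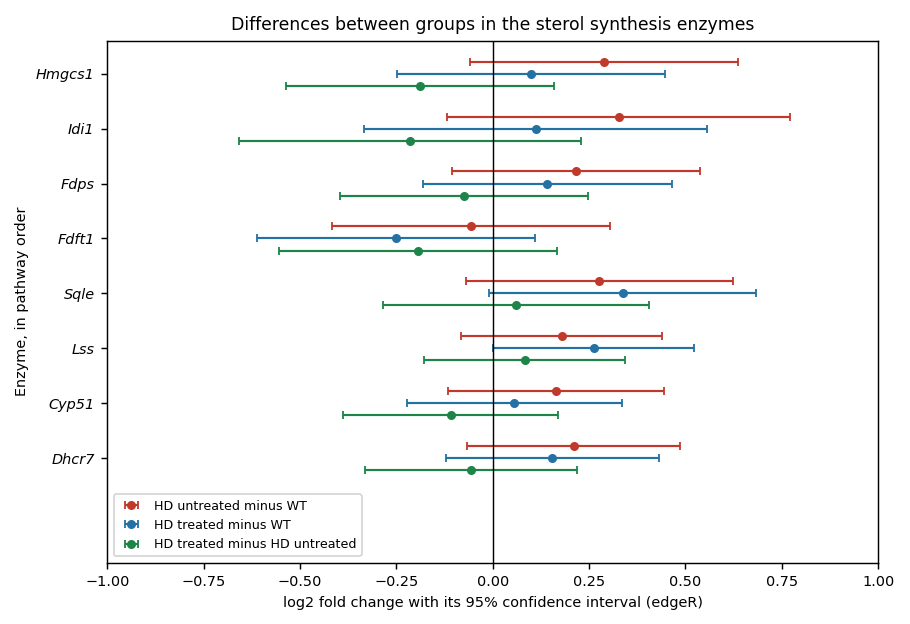
Log2 fold change of each enzyme in the 3 comparisons (x axis, points) with its 95% confidence interval (bars), from the edgeR fit of all 9 mice, with the enzymes in pathway order. All intervals cross 0 except that of Lss for treated against WT, whose lower end lies at 1.00-fold.

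The median log2 difference of the 8 enzymes was 0.21 for untreated against WT, 0.13 for treated against WT and -0.09 for treated against untreated, beside medians of 0.02, 0.0038 and -0.01 over all tested genes. Log2 differences above 0 were found in 7, 7 and 2 of the 8 enzymes and in 52.1%, 50.6% and 46.3% of all genes. The 2 HD groups are set against the same WT mice, so their values are not independent. Without WT replicate 1, the median against WT was 0.32 in untreated and 0.26 in treated mice, and without WT replicate 2 or WT replicate 3 it was 0.07 in treated mice in both cases. At an unadjusted P under 0.05, 5 of 8 enzymes passed for untreated against WT without WT replicate 1 and also without untreated replicate 3, with 0 called. With untreated replicate 1 left out, the median for treated against untreated was 0.0096 in place of -0.09, and without untreated replicate 3 it was -0.19. An exact two-sided permutation test of each enzyme on log2 CPM, whose smallest possible p with 3 mice against 3 is 0.1, gave 0.1 for Lss in treated against WT and 0.2 to 0.9 in the other 23 tests.

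The size of difference that these libraries allow can be read from the intervals. Untreated mice could be up to 1.71 times WT for Idi1 and up to 1.55 times for Hmgcs1, and no upper bound of the 8 reached 2. Treated mice could be as low as 0.63 times untreated for Idi1 and as low as 0.69 times for Hmgcs1. The highest upper bound for treated against untreated was that of Sqle, at 1.32 times.

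The mice of a group differed from each other in the same direction for most of the enzymes. WT replicate 1 held the highest WT value of 7 of the 8 enzymes and all 8 were above their WT mean there, by 0.23 on the log2 scale on average. Untreated replicate 1 held the highest untreated value of 7 enzymes, and untreated replicate 3 the lowest of all 8. Relative to the WT mean, the average of the 8 enzymes on the log2 scale was 0.37, 0.28 and -0.03 in untreated replicates 1, 2 and 3, and 0.13, 0.19 and 0.06 in treated replicates 1, 2 and 3. As group means these are 0.20 ± 0.21 in untreated and 0.13 ± 0.06 in treated mice, against 0 ± 0.20 in WT (SD, n = 3 each).

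**Figure D3:**
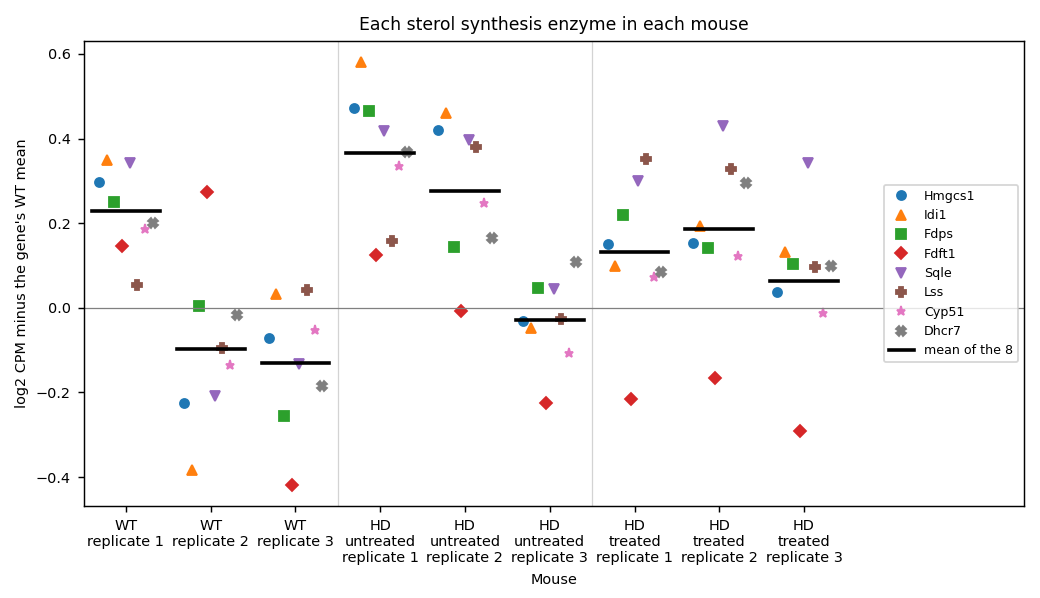
Log2 CPM of each enzyme in each mouse minus the mean of that enzyme in the 3 WT mice (y axis), with mice on the x axis, 1 symbol per enzyme and the mean of the 8 as a black bar. The bar runs from -0.13 in WT replicate 3 to 0.37 in untreated replicate 1, and Fdft1 is the lowest of the 8 in all 6 HD mice.

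The spread was narrower among treated mice for most of the enzymes. The ratio of the highest to the lowest mouse had a median over the 8 enzymes of 1.43 in WT, 1.33 in HD untreated and 1.09 in HD treated mice, and the highest ratio was 1.66, 1.55 and 1.19. Lss was wider in treated than in WT mice, with a ratio of 1.11 in WT, 1.33 in HD untreated and 1.19 in HD treated mice. The narrowing of the median rests on 3 mice per group, was not set against other genes and was not tested.

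**Figure D4:**
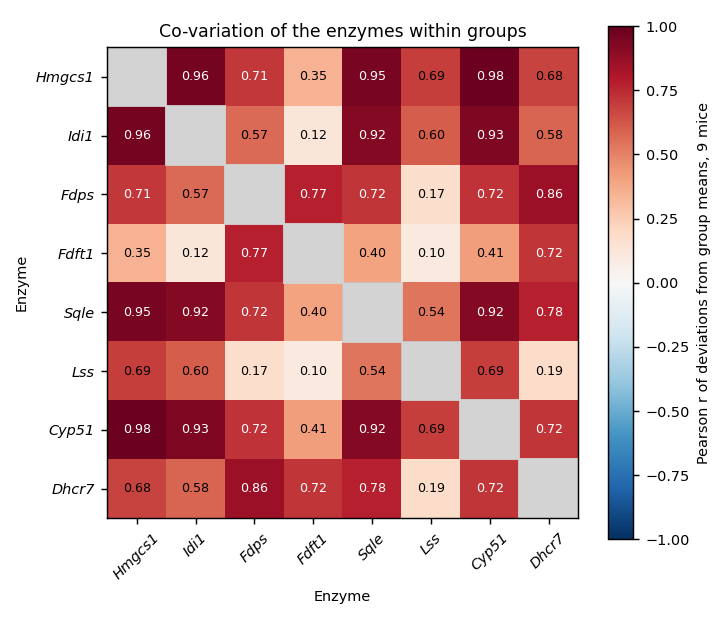
Pearson correlation between each pair of enzymes (both axes) of the deviations of log2 CPM from the group means over 9 mice, with the value in each cell and the diagonal in grey. Hmgcs1, Idi1, Sqle and Cyp51 form the block with values from 0.92 to 0.98, and Fdft1 and Lss stand lowest with most others.

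After the group means were taken out, the correlation of the 28 pairs over 9 mice had a median of 0.70 and ran from 0.10 (Fdft1 with Lss) to 0.98 (Hmgcs1 with Cyp51), with 21 pairs above 0.5. These values are descriptions, since all pairs come from the same 9 libraries and share their depth and tissue makeup. Hmgcs1, Idi1, Sqle and Cyp51 had values of 0.92 to 0.98 with each other. Fdps and Dhcr7 had 0.86 with each other, and Fdps had 0.77 and Dhcr7 0.72 with Fdft1. The Hmgcs1, Idi1 and Cyp51 windows printed above each hold at least 1 CCAAT box, as does the Lss window.

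The genes outside the lists with the most similar course over the 9 mice to the mean of the 8 enzymes were Klhdc2, Pfn2, Fndc4, Nxph3, Sv2a, Ndrg3, Dlc1, Anapc7, Nsmce3 and Mapk8ip2, with Pearson r from 0.96 down to 0.93 among 11106 genes ranked. By deviations from the group means they were Mrps27, Fndc4, Ss18l2, Resp18, Scamp5, Pigb, Kctd2, Pfn2, Klhdc2 and Anapc7, from 0.98 down to 0.95. All genes of the lists, the enzymes of the route among them, were left out of these rankings beforehand, so their absence here carries no information. Among genes of the lists, Insig1, which holds the SREBP complex in the endoplasmic reticulum, had a correlation of deviations of 0.94 (rank 22).

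Markers of other cell types moved along in some of the same mice. The 10 pan-neuronal markers summed to 6188, 4806 and 5316 CPM in WT and 7205, 6485 and 6038 CPM in untreated mice. In treated mice they summed to 5841, 5487 and 5753 CPM, with 0 markers at 0. Like most of the enzymes, their sum was highest in replicate 1 of the WT and untreated mice. Among treated mice it was lowest in replicate 2, where 6 of the 8 enzymes were highest. The 11 astrocyte markers summed to 6204, 5668 and 5472 CPM in WT and 5946, 5410 and 5882 CPM in untreated mice. They summed to 5397, 6025 and 5338 CPM in treated mice, so in each group the highest sum fell where most of the enzymes were highest. The 14 markers of mature oligodendrocytes and myelin summed to 10544 to 11505 CPM in WT, 8612 to 9078 CPM in HD untreated and 8934 to 13114 CPM in HD treated mice. The part of these marker lists in the levels of the enzymes was not tested. The 10 choroid plexus markers ran from 305 to 5415 CPM within WT, with the lowest sum in replicate 1, where 7 of the 8 enzymes were highest. In untreated mice the sum was instead highest in replicate 1, at 482 CPM against 275 and 266 CPM, where 7 of the 8 enzymes were also highest. In treated mice it ran from 309 to 2072 CPM and was highest in replicate 3, where 5 of the 8 enzymes were lowest. The part of the choroid plexus markers was not tested either. In bulk tissue, fewer cells of a type and less RNA per cell cannot be told apart.

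Other marker lists are given by their calls against WT in untreated and then treated mice, beside 10.7% and 3.69% of all tested genes. Of the myelin markers, Opalin was called higher and Mal lower, then Opalin higher. Of 10 pan-neuronal markers 3 were called higher (Elavl4, Stmn2 and Syn1), then 0. Of 9 markers of oligodendrocyte precursors and new oligodendrocytes 1 was lower (Gpr17), then 1 higher (Olig1), and of 11 astrocyte markers 0, then 1 higher (S100b). Of 10 choroid plexus markers 1 was lower (Clic6), then 0, and of 10 microglial markers 1 was higher (C1qa), then 0. Of 9 endothelial and mural markers 2 were higher (Cldn5 and Rgs5), then 1 (Cldn5), of 10 T cell markers 5 were higher and 1 lower, then 1 lower, and of 6 red blood cell markers 0. Of 11 interferon response genes 9 were higher, then 2, with summed levels of 37.9 to 40.0 CPM in WT, 132 to 749 CPM in HD untreated and 113 to 524 CPM in HD treated mice. Calls alone leave out glial markers that did not overlap WT. Of 10 microglial markers 6, then 10, lay above every WT mouse. Of 11 astrocyte markers 1 lay above (Gfap), then 3 above, Gfap among them, and 3 below. The shares of all tested genes without overlap in either direction were 30.1%, then 28.6%. In the comparison of treated with untreated mice, edgeR called 0 genes of any list at an adjusted p under 0.05. DESeq2 called 0 of the 22 enzymes of the route. At an unadjusted P under 0.05 by edgeR, all 12 markers of striatal projection neurons lay higher in treated mice, beside 5.5% of all tested genes in either direction.

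Of the 14 other enzymes of the route, all tested, 1 was called higher in untreated against WT mice, the same 1 in treated against WT, and 0 in treated against untreated (0 also by DESeq2 and 0 at an unadjusted P under 0.05). Over all tested genes edgeR called 10.7%, 3.69% and 0% in these comparisons, and the same shares stand beside the gene lists that follow. DESeq2 called 2 in each comparison with WT, beside 17.8% (untreated) and 10% (treated) of all tested genes. The called gene was Lbr, which encodes the lamin B receptor, a sterol reductase of the inner nuclear membrane that also anchors chromatin. Lbr stood at 11.6, 11.6 and 11.9 CPM in WT, 17.4, 16.8 and 15.5 CPM in untreated and 15.5, 17.0 and 15.9 CPM in treated mice, with both HD groups above every WT mouse. It rose by 0.50 on the log2 scale in untreated mice (SE 0.095, adjusted p = 0.0142) and by 0.46 in treated mice (SE 0.095, adjusted p = 0.0318), both by edgeR. The treated call was lost in 7 of the 9 fits that left out 1 mouse, including each that left out a WT or treated mouse (adjusted p up to 0.139).

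Of the 14 other enzymes, 2 lay above and 0 below WT without overlap in untreated mice, beside 30.1% of all tested genes in either direction. In treated mice 2 lay above and 1 below, beside 28.6% of all tested genes. Hsd17b7, a reductase that acts on the sterol ring, was named after its values were seen, as the other enzyme that lay above WT without overlap in both HD groups. It stood at 17.7, 10.4 and 16.9 CPM in WT, 28.3, 22.2 and 20.5 CPM in untreated and 23.3, 21.9 and 21.8 CPM in treated mice. The log2 differences from WT were 0.66 (SE 0.20, adjusted p = 0.062) and 0.57 (SE 0.20, adjusted p = 0.134) by edgeR. Neither was called by edgeR over all 9 mice, and both were called by DESeq2 (adjusted p = 0.0108 and 0.0453). Without WT replicate 1 edgeR called Hsd17b7 in untreated mice (adjusted p = 0.0473).

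Msmo1, a sterol C4 oxidase, averaged 53.4 ± 8.81, 62.2 ± 7.30 and 55.7 ± 5.43 CPM, and Nsdhl, a sterol dehydrogenase, 15.3 ± 1.42, 17.6 ± 1.36 and 16.8 ± 2.12 CPM, in WT, untreated and treated mice (SD, n = 3 each). Acat2, Mvk, Pmvk, Mvd, Tm7sf2, Ebp, Sc5d and Erg28, 8 further enzymes, were not called, and of these Acat2, which makes acetoacetyl-CoA and was named after its values were seen, lay lower in all 3 treated than in all 3 WT mice (log2 difference -0.15, edgeR adjusted p = 0.426). Over the 14 enzymes the median log2 difference was 0.19, 0.09 and -0.05 in the 3 comparisons, with 13, 12 and 6 of 14 above 0.

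Of 13 genes of sterol sensing and uptake, not all of which are reported here, 1 was called lower in each HD group against WT. This was Mbtps1, the site-1 protease that starts the release of SREBP, which fell from 133, 160 and 141 CPM in WT to 89.2, 102 and 103 CPM in untreated mice and to 109, 104 and 96.7 CPM in treated mice. The edgeR log2 differences from WT were -0.56 (adjusted p = 0.00627) and -0.49 (adjusted p = 0.0201), and the treated call was lost without WT replicate 2 or any 1 treated mouse (adjusted p up to 0.106). Srebf2 itself averaged 269.6 ± 19.7, 254 ± 18.5 and 243 ± 5.92 CPM and was not called. Insig1, an SREBP2 target, averaged 45.6 ± 5.98, 61.2 ± 12.2 and 54.0 ± 7.69 CPM, with a log2 difference of 0.42 between untreated and WT (adjusted p = 0.122 by edgeR, and 0.0493 without untreated replicate 3).

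Of 15 genes of cholesterol turnover and efflux, untreated mice had 1 called higher than WT and 1 called lower, and treated mice had 0 higher and 1 lower. Cyp46a1, the neuronal hydroxylase that turns cholesterol into a form that leaves the brain, fell from 253, 307 and 266 CPM in WT to 182, 186 and 182 CPM in untreated and 202, 193 and 189 CPM in treated mice. It fell by 0.59 on the log2 scale in untreated mice (adjusted p = 0.00291) and by 0.50 in treated mice (adjusted p = 0.0109) by edgeR. The treated call was lost without any 1 treated mouse (adjusted p up to 0.0785). The 12 markers of striatal projection neurons had summed levels of 6930 to 8998 CPM in WT, 2124 to 2516 CPM in HD untreated and 3348 to 3391 CPM in HD treated mice, with 12 and 10 of 12 called lower than WT in untreated and treated mice. Their part in the fall of Cyp46a1 was not tested.

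Abca1, which exports cholesterol to apolipoproteins, had 39.9, 46.6 and 44.7 CPM in WT, 49.4, 70.1 and 101 CPM in untreated and 70.2, 71.6 and 73.0 CPM in treated mice. It was called higher in untreated mice (log2 difference 0.75, adjusted p = 0.0485) and not in treated mice (0.71, adjusted p = 0.0906) by edgeR, and the untreated call was lost in 8 of the 9 fits that left out 1 mouse, all but that without untreated replicate 1. Without untreated replicate 3 the untreated Abca1 difference was 0.45. The treated Abca1 difference was called by DESeq2 (adjusted p = 0.00909) and by edgeR with only the treated and WT mice (adjusted p = 0.00664), without untreated replicate 1 (adjusted p = 0.0249) or without untreated replicate 3 (adjusted p = 0.0134). With the share of Y-linked counts as a covariate, the edgeR log2 difference of Abca1 from WT was 0.28 in untreated mice (adjusted p = 0.385) and 0.027 in treated mice (adjusted p = 0.977). That share does not overlap between treated and WT mice, so this fit cannot separate it from treatment. Apoe, the main carrier of brain cholesterol, averaged 1408 ± 194, 1538 ± 492 and 1513 ± 186 CPM. Ch25h, which makes 25-hydroxycholesterol, held only 6 to 30 counts per mouse, and its interval for treated against untreated ran from 0.47-fold to 3.12-fold. The 10 microglial markers, which like Abca1 were highest in untreated replicate 3, summed to 379 to 426 CPM in WT, 507 to 1343 CPM in HD untreated and 611 to 860 CPM in HD treated mice, and their part in the Abca1 level was not tested.

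**Figure D5:**
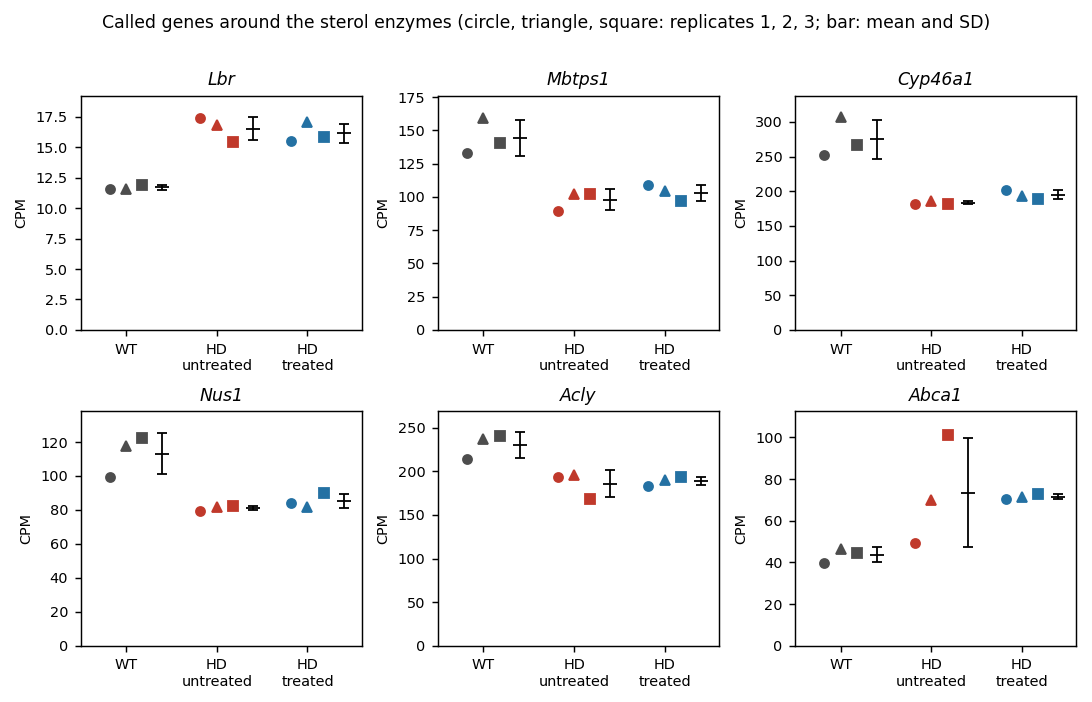
Level in CPM, on axes that start at 0, of 6 called genes of the sterol lists in each mouse, with replicates 1, 2 and 3 as circles, triangles and squares and the mean with SD of 3 mice as a bar. All 6 HD mice lie outside the WT range for each of the 6 genes, above it for Lbr and Abca1 and below it for Mbtps1, Cyp46a1, Nus1 and Acly. These genes were drawn because they were called against WT, a choice that favours such separation. Of all tested genes, 30.1% in untreated and 28.6% in treated mice did not overlap WT. Acaca, also called in untreated mice, is not drawn.

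In the isoprenoid branch, which draws on farnesyl diphosphate made by Fdps, 1 of 8 genes was called in each HD group against WT. This was Nus1, a subunit of the enzyme that makes dolichol, which fell from 99.2, 118 and 123 CPM in WT to 79.6, 81.5 and 82.1 CPM in untreated and 84.1, 81.8 and 90.1 CPM in treated mice. The edgeR log2 differences were -0.48 (adjusted p = 0.00942) and -0.41 (adjusted p = 0.032), and the treated call was lost in 7 of 9 fits that left out 1 mouse, all but those without WT replicate 1 or untreated replicate 3 (adjusted p up to 0.153). Of 11 genes of fatty acid synthesis, which shares acetyl-CoA with the sterol route, 2 were called in untreated mice and 0 in treated mice. Acly, which supplies acetyl-CoA, fell by 0.31 on the log2 scale (adjusted p = 0.0374) and Acaca, the acetyl-CoA carboxylase, rose by 0.25 (adjusted p = 0.0467) in untreated against WT mice by edgeR. Acly stood at 214 to 240.3 CPM in WT, 169 to 196 CPM in HD untreated and 183 to 193 CPM in HD treated mice. Both calls were lost in most fits that left out 1 mouse, 8 of 9 for Acly (all but that without WT replicate 1) and 9 of 9 for Acaca. No gene of these 4 lists was called between treated and untreated mice by edgeR.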

How the data were processed

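Striatal RNA of 9 mice was measured by 3′ mRNA sequencing from oligo-dT primed libraries, 3 mice per group, grouped by the labels. The values are raw gene counts deposited by the authors. The submitters' processing notes name Trimmomatic 0.39, FastQC 0.11.9, HISAT2 2.2.1 and featureCounts 2.0.1, whereas the study's methods name STAR, and the mouse genome build is not given in the sources used here. Because 3′ reads do not scale with transcript length, levels were not compared between genes. GENCODE M21 gave a name to 52081 of 55357 gene IDs.

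Genes were filtered by filterByExpr and fitted with TMM scaling and the quasi-likelihood test of edgeR 4.0.16 in R 4.3.3, all 9 mice together, with Benjamini-Hochberg adjustment. The fit was checked on simulated counts. Log2 CPM used a prior count of 2. Alternatives were DESeq2 1.42.0, library size scaling, other filters, only the groups compared, a replicate block, a Y-linked covariate, the study's fold thresholds and each mouse left out. Exact permutation tests used scipy 1.17.1. P-values measure the spread between mice.

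The members and all gene lists were chosen with earlier results of these data known. Values were given for the 8 enzymes, for Msmo1, Nsdhl, Srebf2, Insig1, Cyp46a1, Ch25h, Abca1 and Apoe, and for up to 5 called genes of each sterol list and comparison. For each cell type list, counts, summed levels and up to 3 genes were given. The 10 genes most like the members were ranked by Pearson r among genes with a mean log2 CPM of at least 3. Promoters are RefSeq windows of GRCm38.p6. Some genes of the lists are not reported here, although counts over a list include them. The 9 pigs of the series were not used here.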

Additional observations from a re-analysis of the deposited data

How the results depend on the processing

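None of the 8 enzymes was called in any comparison under any alternative run, and the smallest adjusted p was 0.0532 (Sqle in untreated against WT mice, without WT replicate 1). The median of the 8 in treated against WT mice was 0.34 with the share of Y-linked counts as a covariate, which does not overlap between those groups. In treated against untreated mice the median was 0.016 among mice without Y-linked counts. Of 84 gene differences followed, 32 changed sign at least once, all of them uncalled. Of the 11 called gene differences 0 changed sign and 9 lost the call at least once. Mbtps1 and Cyp46a1 in untreated against WT mice kept it in every alternative fit at an adjusted p under 0.05. The study's 2-fold thresholds were not part of these counts for single genes. Mbtps1 at 0.68 and Cyp46a1 at 0.67 times WT fall short of 2-fold.

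The 1 other enzyme called in untreated against WT mice became 0 under either 2-fold threshold, with only the 2 groups compared or with the Y-linked covariate, 2 with library size scaling or DESeq2, and 1 to 3 with 1 mouse left out (3 without WT replicate 1). The 1 called in treated against WT mice became 0 under either 2-fold threshold, with no expression filter or with the Y-linked covariate, 2 with DESeq2, and 0 to 1 with 1 mouse left out. Replicate numbers were not used to pair the mice in the main fit. Deviations from group means correlated at -0.08 to 0.24 between same-numbered mice and at -0.28 to 0.16 between differently numbered mice. The highest values were those of untreated with treated replicate 3 (0.24) and untreated with treated replicate 1 (0.19). Whether the numbers mark a pairing was not tested. With the replicate number as a block, 3 other enzymes were called in untreated against WT mice and 0 in treated against WT, 0 of the 8 members were called in each, the calls of Acly and Acaca in untreated and of Lbr in treated mice were lost, and Abca1 between treated and untreated mice was 0.00685.

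Only the untreated group held mice with and mice without Y-linked counts, so the covariate rests largely on untreated replicate 1. It cannot separate Y-linked counts from treatment between treated and WT mice. With the covariate the log2 difference from WT became 0.00761 for Fdft1 and -0.21 for Apoe in untreated mice. In treated mice the difference from WT became 0.085 for Mvd, -1.58 for Ch25h and -0.41 for Apoe. The covariate ended the calls of Lbr, Nus1, Abca1, Acly and Acaca in untreated and of Lbr, Nus1, Mbtps1 and Cyp46a1 in treated mice against WT. Without an expression filter the calls of Abca1, Acly and Acaca in untreated and of Lbr and Nus1 in treated mice were lost, and with only the 2 groups compared those of Lbr, Abca1, Acly and Acaca in untreated and of Nus1 in treated mice. Library size scaling ended the calls of Acly in untreated and Nus1 in treated mice and added Hsd17b7 in untreated mice (adjusted p = 0.0459). Mvd in treated against WT mice was 0.013 with library size scaling. Between treated and untreated mice the covariate gave 0.047 for Fdps, 0.017 for Dhcr7, 0.016 for Pmvk, 0.0020 for Lbr, 0.098 for Hsd17b7, -0.0108 for Ebp and -0.18 for Ch25h. Among mice without Y-linked counts these were 0.074 for Fdps, 0.039 for Dhcr7, 0.029 for Pmvk, 0.015 for Lbr, 0.079 for Hsd17b7, 0.0036 for Srebf2 and -0.093 for Ch25h. The cause of these changes was not tested.

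Leaving out 1 mouse at a time changed the sign of further log2 differences, given from lowest to highest. For untreated against WT these ranges were -0.24 to 0.087 for Fdft1, -0.67 to 0.66 for Ch25h, -0.089 to 0.26 for Mvd, -0.086 to 0.13 for Tm7sf2, -0.076 to 0.16 for Ebp and -0.16 to 0.28 for Apoe. For treated against WT these ranges were -0.22 to 0.12 for Mvd, -0.19 to 0.94 for Ch25h, -0.048 to 0.29 for Idi1, -0.048 to 0.17 for Msmo1, -0.013 to 0.16 for Tm7sf2, -0.066 to 0.17 for Ebp and -0.061 to 0.083 for Pmvk. For treated against untreated these ranges were -0.16 to 0.067 for Fdps, -0.12 to 0.033 for Dhcr7, -0.16 to 0.022 for Pmvk, -0.081 to 0.0081 for Lbr, -0.18 to 0.072 for Hsd17b7, -0.10 to 0.84 for Ch25h, -0.078 to 0.086 for Ebp, -0.050 to 0.13 for Sqle, -0.0097 to 0.20 for Lss, -0.078 to 0.10 for Acat2, -0.088 to 0.13 for Mvk, -0.045 to 0.15 for Tm7sf2, -0.041 to 0.072 for Sc5d, -0.020 to 0.12 for Erg28, -0.25 to 0.26 for Abca1, -0.17 to 0.27 for Apoe and -0.16 to 0.017 for Nsdhl. With 3 mice a group, the intervals of the 8 enzymes give the sizes of difference that these data still allow. They are not a limit of detection, since a call needed an adjusted p under 0.05 over all tested genes.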
